A study of Mus musculus with 4 samples.

Results

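The genes described here are those that mark endothelial cells, the lining of blood and lymphatic vessels, together with the adhesion molecules that inflamed endothelium displays to leukocytes. They were chosen by name, by matching 35 given names to the symbols of a table of 24421 genes. A total of 34 names had a row of their own, and the remaining name, a placeholder written Clec14a_not_used, had none. Of the 34 genes, 33 were at 1 FPKM or more in 2 or more of the mice, the condition for being tested, and Prox1 was not. The table comes from polyA RNA sequencing of 4 C57BL/6 mice of 8 weeks, 2 with the genotype Usp25+/+, called WT-139 and WT-140, and 2 with the genotype Usp25-/-, called KO-826 and KO-850. The product of Usp25 is a protease that removes ubiquitin from other proteins. Every mouse, of either genotype, had received 2.5% dextran sulfate sodium (DSS), an agent that injures the colonic lining, for 5 days and then normal water for 2 days, and the RNA was labelled as coming from a 0.5 cm piece of colon. The labels name no untreated mice, and they do not say how the deletion was made or whether the mice were littermates. Levels are given as FPKM, fragment numbers scaled to transcript length and library size, and the depth behind them is unknown.

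Endothelial cells are held together by the adhesion proteins PECAM1 and VE-cadherin, grow and survive through the VEGF and angiopoietin receptors, and keep their identity through transcription factors of the ETS and SOX families. When tumour necrosis factor or interleukin 1 reaches them, NF-kappaB signalling places E-selectin, P-selectin, VCAM1 and ICAM1 on their surface. Selectins let leukocytes roll along the vessel wall, and ICAM1 and VCAM1 then hold them through integrins, which is how neutrophils and monocytes enter inflamed gut.

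Some facts of the libraries touch what follows. Usp25 had 38.5 and 16.6 FPKM in mice WT-139 and WT-140 but 2.65 and 1.71 FPKM in mice KO-826 and KO-850, in the direction of the labels. Of 9 marker genes of colonic epithelium, 7 stayed below 1 FPKM in all 4 mice, and Cdx1, Zg16 and Aqp8 were listed at 0 in each. Among the other markers, Vil1 reached 1.46 FPKM and Krt20 stood between 3.11 and 52.4 FPKM. The summed level of 8 genes of lung epithelium came to 2273 FPKM in mouse WT-139, 4337 in mouse WT-140, 5206 in mouse KO-826 and 5210 in mouse KO-850, so the tissue label was not borne out by these markers and the libraries are called colon only as labelled. Summed over 9 neutrophil genes, mouse WT-139 had 41747 FPKM and mouse WT-140 had 759 FPKM, against 2087 and 1227 FPKM in the Usp25-/- mice. Genes listed at 0 numbered 3862 in mouse WT-139, 8813 in mouse WT-140, 7175 in mouse KO-826 and 8612 in mouse KO-850. Genes at 1 FPKM or more numbered 12058, 11656, 11759 and 11879 in the same order of mice. Endothelial genes themselves were present in every library. Their median over the 34 genes was 8.07 FPKM in mouse WT-139, 13.0 in mouse WT-140, 7.52 in mouse KO-826 and 11.2 in mouse KO-850. The blood vessel genes among them are shared by many organs, whereas Madcam1, the addressin of gut vessels, was listed at 0 in all 4 mice.

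Promoter windows are shown for 2 general vessel genes (Emcn and Egfl7) and 3 adhesion genes of inflamed vessels (Sele, Selp and Icam1). RefSeq windows from 250 bases before to 50 bases after a gene's start were found for 19 of the 34 genes, and 25 windows in all, on build GRCm38.p6. Each line below gives the 200 bases directly before a start, 5′ to 3′ along the gene, and capitals mark the letters ACAGGAAG or their reverse complement, a short ETS-type motif.
Emcn, chr3:137340878-137341077, plus strand: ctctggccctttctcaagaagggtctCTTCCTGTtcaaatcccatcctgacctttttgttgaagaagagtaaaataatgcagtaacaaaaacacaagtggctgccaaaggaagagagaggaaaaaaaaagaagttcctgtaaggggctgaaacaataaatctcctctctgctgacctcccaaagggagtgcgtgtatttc
Egfl7, chr2:26580883-26581082, plus strand: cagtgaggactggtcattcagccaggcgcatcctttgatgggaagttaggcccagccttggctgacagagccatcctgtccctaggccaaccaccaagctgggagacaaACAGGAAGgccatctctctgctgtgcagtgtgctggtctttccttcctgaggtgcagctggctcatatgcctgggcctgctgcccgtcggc
Sele, chr1:164048034-164048233, plus strand: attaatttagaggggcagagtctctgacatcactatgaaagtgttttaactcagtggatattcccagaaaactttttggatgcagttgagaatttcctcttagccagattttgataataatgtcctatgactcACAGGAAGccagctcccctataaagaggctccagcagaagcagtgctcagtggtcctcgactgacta
Selp, chr1:164115064-164115263, plus strand: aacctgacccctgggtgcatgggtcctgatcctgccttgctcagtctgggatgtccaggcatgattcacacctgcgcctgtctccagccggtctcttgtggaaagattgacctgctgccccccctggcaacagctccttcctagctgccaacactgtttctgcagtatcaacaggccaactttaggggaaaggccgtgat
Icam1, chr9:21015740-21015939, plus strand: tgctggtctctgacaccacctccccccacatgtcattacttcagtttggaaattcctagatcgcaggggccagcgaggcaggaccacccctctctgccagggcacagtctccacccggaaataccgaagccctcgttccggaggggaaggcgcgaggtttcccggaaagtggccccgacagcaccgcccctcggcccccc

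The ETS-type letters, searched on both strands, were in 5 of the 25 windows and in 4 of the 19 genes, namely Emcn, Egfl7, Sele and Calcrl. In Egfl7 they were in the windows of 2 of its starts. A further Egfl7 window and that of Tie1, neither of them shown, held none. Over all 32851 windows of the table, 3.58% held them. An NF-kappaB-type motif, GGGNNTTCC on either strand, was in 1 of the 25 windows, that of Ednrb, and in 5.82% of all windows. Only these letters were searched, so NF-kappaB sites of another spelling or length would not be counted in any window. The ETS-type and NF-kappaB-type letters did not overlap in any of these windows, since no window of a member held both. Vcam1 had no window in the table. These matches describe letters in short windows and say nothing of binding.

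Levels of most endothelial genes overlapped between the genotypes, and many shared 1 order of the mice. Mouse WT-140 had the highest level of 19 of the 34 genes, and mouse KO-826 the lowest level of 18. Over the 12103 genes tested, mouse WT-140 was highest in 27.2% and mouse KO-826 lowest in 24.4%. Mice WT-140 and KO-850 together held the 2 highest values for 22 of the 34 genes, an order found in 22.7% of all tested genes. Mouse WT-139 was lowest for 11 of the 34 and highest for 5, beside 39.2% and 29.7% of all tested genes. Fewer endothelial cells and less of their RNA per cell cannot be told apart in RNA from whole tissue.

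**Figure D1:**
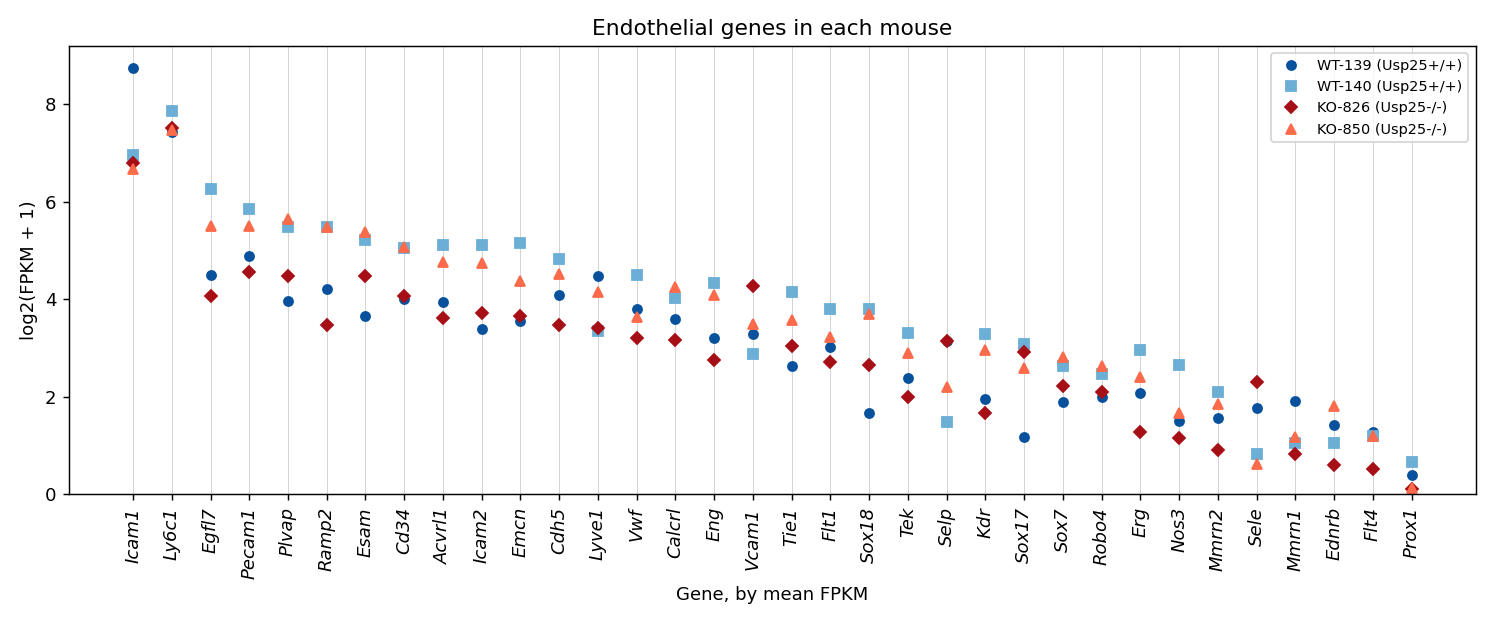
Level of each of the 34 endothelial genes (vertical axis, log2(FPKM + 1)), with genes ordered along the horizontal axis by mean FPKM and 1 symbol per mouse. Mice WT-140 and KO-850 held the 2 highest values for 22 genes, and Icam1 reached 428 FPKM in mouse WT-139.

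By mean FPKM over the 4 mice, which allows for transcript length, Icam1 and Ly6c1 stood highest at 191 FPKM each, and their ranges of 101 to 428 and 172 to 233 FPKM overlapped. Egfl7 at 39.6 FPKM and Pecam1 at 38.1 FPKM came next. The means of 18 genes were at least 10 FPKM and those of 33 were at least 1 FPKM. Prox1 was the lowest, at no more than 0.583 FPKM in any mouse.

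Apart from Ly6c1, the junction and surface genes had their lower values in mice WT-139 and KO-826. Pecam1, an adhesion protein of endothelial junctions that platelets and leukocytes also carry, stood at 28.7 and 56.6 FPKM in mice WT-139 and WT-140 and at 22.6 and 44.4 FPKM in mice KO-826 and KO-850. Both genotypes thus had a low and a high mouse, and the groups overlapped. Cdh5, which encodes VE-cadherin, the adherens junction cadherin of endothelium, had 16.1 and 27.3 against 10.1 and 22.0 FPKM, with the same 2 mice high. Esam, an immunoglobulin-type junction protein, had 11.6 and 36.1 against 21.3 and 40.6 FPKM. Icam2, a constitutive ligand of the leukocyte integrin LFA-1, had 9.49 and 33.9 against 12.2 and 25.8 FPKM. In Esam and Icam2 the lowest mouse was WT-139. Emcn, a sialomucin of capillaries and veins, had 10.8 and 34.7 against 11.7 and 19.8 FPKM. Cd34, a sialomucin that progenitor cells and fibroblasts also express, had 15.1 and 32.2 against 15.8 and 32.8 FPKM, with a low and a high mouse of each genotype at nearly the same levels. Ly6c1 varied less, at 172 and 233 against 181 and 176 FPKM. It has a close copy, Ly6c2, which monocytes express, so its level is uncertain.

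Receptors for vessel growth factors followed the same order of mice. Kdr, the main signalling receptor for VEGFA, stood at 2.90 and 8.83 FPKM in mice WT-139 and WT-140 and at 2.17 and 6.77 FPKM in mice KO-826 and KO-850. Flt1, a high-affinity VEGFA receptor that also acts as a decoy, had 7.11 and 13.0 against 5.56 and 8.35 FPKM. Flt4, the VEGFC receptor of lymphatic vessels, was near 1 FPKM, at 1.44 and 1.31 against 0.437 and 1.29 FPKM. Its groups did not overlap, although mice WT-140 and KO-850 were nearly equal. Tek, the angiopoietin receptor TIE2, had 4.23 and 8.88 against 3.01 and 6.51 FPKM. Tie1, its partner receptor, had 5.25 and 16.7 against 7.21 and 11.0 FPKM. Acvrl1, or ALK1, the endothelial receptor for BMP9 and BMP10, had 14.4 and 33.5 against 11.2 and 26.1 FPKM. Eng, endoglin, the co-receptor of ALK1, had 8.24 and 19.2 against 5.73 and 16.1 FPKM. For each of these genes except Flt4, mouse WT-140 was highest and mouse KO-850 second.

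The transcription factors were less alike. Erg, the ETS factor that maintains endothelial identity, stood at 3.20 and 6.82 FPKM in mice WT-139 and WT-140 and at 1.42 and 4.28 FPKM in mice KO-826 and KO-850. The SOXF factors Sox7, Sox17 and Sox18 each had their lowest value in mouse WT-139. Sox7 had 2.73 and 5.18 against 3.69 and 6.07 FPKM. Sox17, a factor of arterial endothelium, had 1.28 and 7.50 against 6.62 and 5.01 FPKM, and so was high in mouse KO-826, where most of the other genes were low. Sox18 had 2.19 and 12.9 against 5.27 and 12.0 FPKM. Prox1, the master regulator of lymphatic identity, had 0.326 and 0.583 against 0.0867 and 0.0927 FPKM, too low to test. Other lymphatic markers of the set were also low or mixed. Lyve1, a hyaluronan receptor of lymphatic vessels that tissue macrophages share, had 21.3 and 9.23 against 9.60 and 16.8 FPKM, with mouse WT-140 lowest. Mmrn1, a secreted protein of lymphatic endothelium and platelets, had 2.77 and 1.07 against 0.770 and 1.27 FPKM.

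Peptide receptors, secreted products and enzymes made up the rest of the general genes. Ednrb, the endothelin receptor of endothelium, stood at 1.68 and 1.09 FPKM in mice WT-139 and WT-140 and at 0.521 and 2.52 FPKM in mice KO-826 and KO-850. Calcrl, the adrenomedullin receptor, had 11.2 and 15.4 against 8.00 and 18.0 FPKM, and Ramp2, the protein that directs it to adrenomedullin, had 17.5 and 43.5 against 10.1 and 43.8 FPKM. All 3 genes were highest in mouse KO-850 and lowest in mouse KO-826, so the largest gap lay inside the Usp25-/- group. Vwf, the adhesive protein that captures platelets, had 13.1 and 21.7 FPKM in Usp25+/+ and 8.21 and 11.4 FPKM in Usp25-/- mice, without overlap. Egfl7, a secreted factor of growing vessels, had a wide spread, at 21.6 and 76.4 against 15.9 and 44.5 FPKM. Mmrn2, a matrix protein of the vessel wall, had 1.96 and 3.27 against 0.883 and 2.63 FPKM. Robo4, a guidance receptor that stabilises vessels, had 3.01 and 4.52 against 3.28 and 5.20 FPKM, one of the narrower ranges of the set. Plvap, the protein of fenestral diaphragms, had 14.7 and 43.7 against 21.4 and 49.0 FPKM. Nos3, the endothelial nitric oxide synthase, had 1.86 and 5.32 against 1.22 and 2.17 FPKM.

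Dividing each gene by Pecam1 in the same mouse narrowed the spread over the 4 mice for most members. The ratio had a smaller highest-to-lowest quotient than the FPKM for 23 of the 32 other tested members, beside 17.3% of the 11842 tested genes with no value of 0. The ratio stayed within 2-fold over the 4 mice for 18 of the 32, and the FPKM did so for 2. Over all those genes the shares were 14.6% for the ratio and 53.9% for the FPKM. The median quotient over the 32 members was 1.92 for the ratio and 3.34 for the FPKM. Pecam1 was taken as the denominator after the values had been seen, and it is a member itself.

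Tek held the steadiest ratio, at 0.148 and 0.157 in mice WT-139 and WT-140 and 0.133 and 0.147 in mice KO-826 and KO-850. For Acvrl1 the ratio was 0.501 and 0.591 against 0.496 and 0.588, and for Cdh5 it was 0.563 and 0.483 against 0.446 and 0.495. These receptors and the cadherin, the members with the narrowest ratios, therefore kept nearly fixed proportions to Pecam1 in mice whose levels of them differed by a factor of 2.71 to 2.99. Other junction genes were less steady and had their lowest ratio in mouse WT-139. Esam had 0.403 and 0.638 against 0.941 and 0.915, and Icam2 had 0.331 and 0.599 against 0.541 and 0.581. Leukocytes also carry Pecam1, and their part in these ratios was not tested. At the other end, the ratio of Sele varied 14.2-fold and that of Selp 10.8-fold. Vcam1 followed at 7.22-fold, Icam1 at 6.79-fold and Sox17 at 6.57-fold. The 4 adhesion genes of inflamed vessels were thus the 4 widest of the 32 in this measure. In FPKM, Sele was still the widest of the 32, at 7.24-fold. Selp at 4.37-fold, Icam1 at 4.24-fold and Vcam1 at 2.88-fold were narrower than Sox17 at 5.86-fold and Sox18 at 5.88-fold. Dividing by Pecam1 widens, by construction, the range of genes that run against its order. Sele was also low, at 0.783 FPKM in mouse WT-140 and 0.546 FPKM in mouse KO-850.

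**Figure D2:**
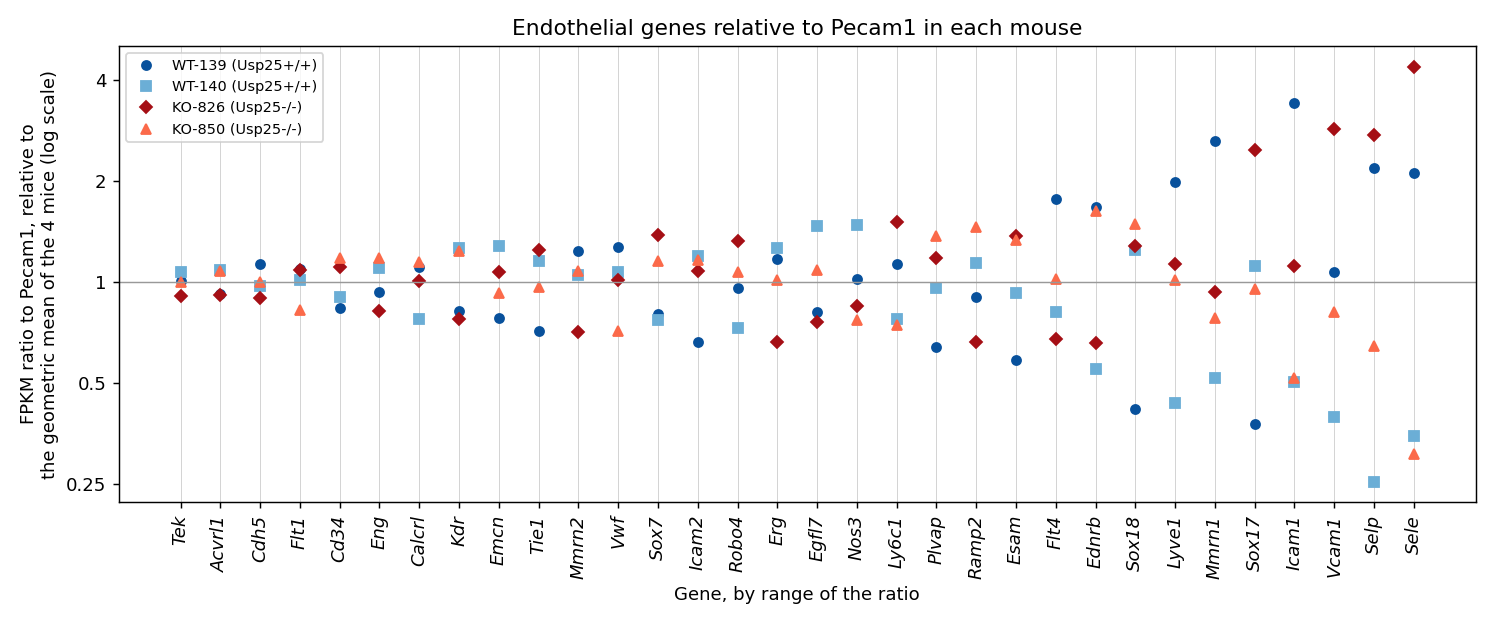
Ratio of each tested member's FPKM to that of Pecam1 in the same mouse, divided by the geometric mean of that ratio over the 4 mice, on a logarithmic vertical axis, with genes ordered by the range of the ratio. Tek, Acvrl1 and Cdh5 lie near 1 in every mouse, and Icam1, Vcam1, Selp and Sele spread from 6.79-fold to 14.2-fold.

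Among the adhesion genes of inflamed endothelium, both selectins ran against the order of the general genes, and Vcam1 and Icam1 each had an order of their own. Sele, which encodes E-selectin, made by activated endothelium, stood at 2.42 and 0.783 FPKM in mice WT-139 and WT-140 and at 3.95 and 0.546 FPKM in mice KO-826 and KO-850. Selp, which encodes P-selectin, stored in endothelial cells and platelets, had 7.91 and 1.81 against 7.82 and 3.60 FPKM. Both selectins were high in mice WT-139 and KO-826, 1 of each genotype, which had the low values of Pecam1. Of the 3 tested platelet genes, Ppbp was high in the same mice, at 19.2 and 0.646 against 13.8 and 2.95 FPKM. The others were not: Pf4 was higher in both Usp25-/- mice, and Clec1b was lowest in mouse WT-139, at 6.35 FPKM. The part of platelets in the Selp values was not tested. In the mm9 build both selectin genes lie on chromosome 1 on the plus strand, and both are protein-coding. Sele runs from 165978365 to 165987808 and Selp from 166045395 to 166080157.

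Vcam1 was the only tested member whose groups did not overlap with Usp25-/- higher. This ligand of the integrin VLA-4, found on activated endothelium and also on stromal cells and macrophages, stood at 8.75 and 6.41 FPKM in the Usp25+/+ mice and at 18.5 and 10.4 FPKM in the Usp25-/- mice. Its means were 7.58 ± 1.65 against 14.4 ± 5.74 FPKM (SD, n = 2). The log2 difference, on the log2(FPKM + 1) scale, was 0.81 ± 0.38 (SE), which did not pass limma's test (Benjamini-Hochberg adjusted p = 0.968). Leaving out mouse KO-826 brought it to 0.42. Vcam1 lies on chromosome 3 from 115812938 to 115832606 (mm9, minus strand).

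Icam1 went the other way. This ligand of the leukocyte integrins LFA-1 and Mac-1, which epithelium and leukocytes express too, stood at 428 and 124 FPKM in the Usp25+/+ mice and at 110 and 101 FPKM in the Usp25-/- mice. Mouse WT-139 stood far above the other 3, which lay within 101 to 124 FPKM. The means were 276 ± 215 against 106 ± 6.59 FPKM (SD, n = 2), and the log2 difference was -1.12 ± 0.63 (limma adjusted p = 0.968). Without mouse WT-139 it was -0.24 (limma adjusted p = 0.808), and without mouse WT-140 it was -2.01 (limma adjusted p = 0.0515). Mouse WT-139 was also the mouse with the high neutrophil genes. All 9 neutrophil genes were highest there, and their part in the Icam1 value was not tested. Icam1 lies on chromosome 9 from 20820404 to 20833241 (mm9, plus strand).

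Set against the mean log2(FPKM + 1) of 6 general genes (Pecam1, Cdh5, Tie1, Esam, Egfl7 and Erg), all 4 adhesion genes stood higher in mice WT-139 and KO-826 than in the other 2. That mean was 3.64 and 4.88 in mice WT-139 and WT-140 and 3.48 and 4.48 in mice KO-826 and KO-850. For Sele the differences from it were -1.87 and -4.04 in the Usp25+/+ mice and -1.17 and -3.85 in the Usp25-/- mice. For Selp they were -0.49 and -3.39 against -0.34 and -2.28. For Vcam1 they were -0.36 and -1.99 against 0.80 and -0.98, and for Icam1 5.10 and 2.09 against 3.31 and 2.19. The groups overlapped for each of the 4 genes on this scale, Vcam1 included. Low general genes raise these differences by construction.

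**Figure D3:**
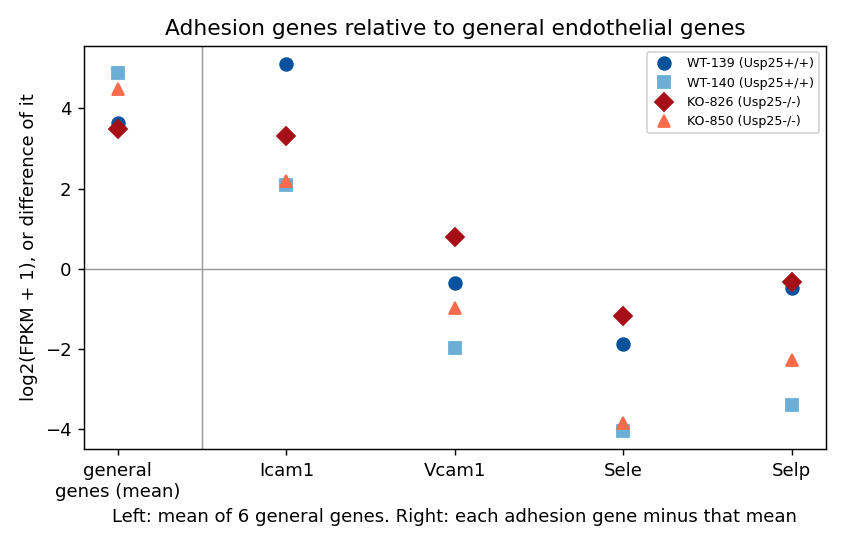
Mean log2(FPKM + 1) of 6 general endothelial genes at the left and, to its right, log2(FPKM + 1) of each adhesion gene minus that mean (vertical axis, log2 units), 1 symbol per mouse. Mice WT-139 and KO-826 lie lowest for the general genes, at 3.64 and 3.48, and highest for each adhesion gene.

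No endothelial gene passed the comparison of Usp25-/- with Usp25+/+ mice. At the threshold of 0.05 for limma's Benjamini-Hochberg adjusted p, 0 of the 33 tested members were called, and 0 had an unadjusted p under 0.05. Over all 12103 genes tested it called 0, or 0%, and 3.30% had an unadjusted p under 0.05. Usp25 itself was not called, with a log2 difference of -3.07 (limma adjusted p = 0.968). The lack of calls therefore does not show that the members were unchanged. Mean log2 values were higher in Usp25-/- mice for 10 members and lower for 23, where 53.6% of all tested genes were higher and 46.4% lower. The median log2 difference over the 33 members was -0.32, beside 0.03 over all genes tested. This balance rested on single mice. Without mouse WT-139 the higher members numbered 4 of 32 and without mouse KO-850 they numbered 5 of 33, with medians of -0.66 in both cases. Without mouse WT-140 they numbered 20 of 33 and without mouse KO-826 23 of 32, with medians of 0.14 and 0.21.

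The genotype groups did not overlap for 4 tested members, of which 1 was higher (Vcam1) and 3 were lower (Icam1, Vwf and Flt4) in Usp25-/- mice. Among all tested genes 19.0% were higher without overlap and 14.7% lower. The remaining 29 members overlapped. Vwf had a log2 difference of -0.74 ± 0.37 (limma adjusted p = 0.968), between -1.09 and -0.40 when 1 mouse was left out. Erg and Nos3 each had a log2 difference of -0.68, with standard errors of 0.53 and 0.48, and stayed below 0 with any 1 mouse left out. At the other end stood Sox17 at 0.62 ± 0.66 and Esam at 0.50 ± 0.62, which turned to -0.33 and -0.28 without mouse WT-139. Over the 33 members the standard errors ran from 0.34 to 0.78 and the adjusted p from 0.968 to 0.999.

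**Figure D4:**
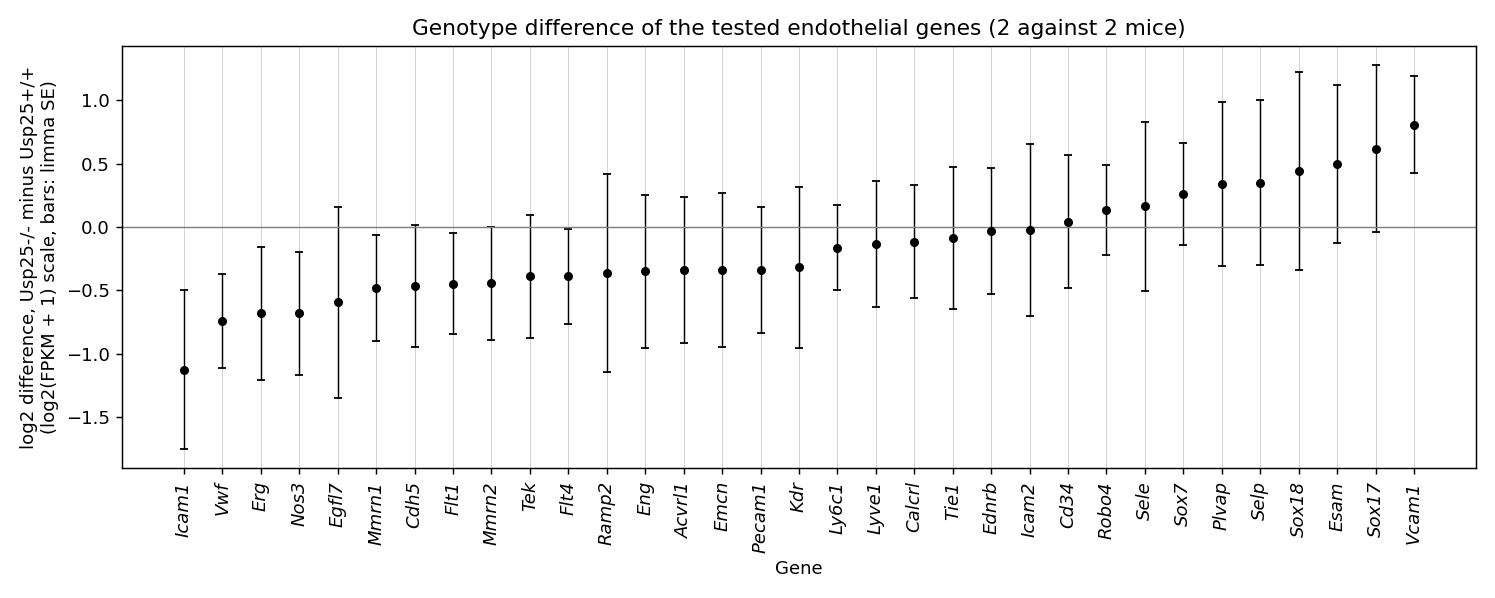
log2 difference of the 33 tested members, Usp25-/- minus Usp25+/+, on the log2(FPKM + 1) scale on the vertical axis, with genes ordered by it and bars showing limma's standard error. Values run from -1.12 for Icam1 to 0.81 for Vcam1, and none passed the adjusted threshold.

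Endothelial genes outside the set mostly had mice WT-140 and KO-850 on top as well. Of a list of 20 further endothelial genes, 19 were tested, 4 were higher and 15 lower in Usp25-/- mice, and 0 passed the test. Mice WT-140 and KO-850 held the 2 highest values for 17 of the 19. As a ratio to Pecam1 the range narrowed for 17 of the 19 and stayed within 2-fold for 15. Cldn5, the main endothelial claudin, stood at 20.8 and 64.3 FPKM in mice WT-139 and WT-140 and at 24.7 and 40.1 FPKM in mice KO-826 and KO-850. Ptprb, the phosphatase that restrains TIE2, had 4.29 and 10.02 against 2.92 and 8.46 FPKM. S1pr1, a receptor for sphingosine 1-phosphate, had 14.5 and 20.8 against 8.59 and 20.4 FPKM.

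Genes known from lung capillaries were present. Of a list of 12 names, 11 had a row and 10 were tested, and the ratio to Pecam1 was narrower than the FPKM for all 10 but within 2-fold for only 3. Car4, a carbonic anhydrase of lung capillaries and of colonocytes, stood at 193 and 399 FPKM in mice WT-139 and WT-140 and at 277 and 367 FPKM in mice KO-826 and KO-850. Foxf1, a transcription factor of lung mesenchyme and endothelium, had 3.74 and 13.1 against 1.72 and 10.03 FPKM, and Tmem100, a target of ALK1 signalling, had 7.65 and 27.5 against 5.48 and 20.1 FPKM. Of the 10 tested genes, 4 were higher and 6 lower in Usp25-/- mice and 0 passed the test. Of 7 tested genes of arteries and veins 2 were higher, 5 lower and 0 past the test, and the ratio was narrower for 3 and within 2-fold for 0. Of 3 tested genes of a further lymphatic list 1 was higher, 2 lower and 0 past the test, and the ratio was narrower for 1 and within 2-fold for 0. Among the artery and vein genes Ackr1, a chemokine-binding receptor of venules, was high in the mice with high selectins, at 4.29 and 0.659 against 3.51 and 0.415 FPKM. Nr2f2, from the same list, did not share that order and was lowest in mouse KO-826, at 2.71 and 1.56 against 0.854 and 2.03 FPKM. Gja4, a connexin of arteries, had 1.10 and 7.44 against 2.46 and 7.58 FPKM, with the same 2 mice high as for the general genes. Gja5, another connexin of arteries, had 1.05 and 1.39 against 0.322 and 2.30 FPKM.

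Ligands and signalling partners of the receptors were mixed. Of 8 tested ligands and co-receptors of the VEGF and angiopoietin pathways, 6 were higher and 2 lower in Usp25-/- mice, and 0 passed the test. Vegfa stood at 48.6 and 30.6 FPKM in mice WT-139 and WT-140 and at 70.1 and 35.8 FPKM in mice KO-826 and KO-850, high in the mice where its receptor Kdr was low. Vegfb, a ligand of Flt1, had 4.65 and 15.3 against 8.91 and 10.6 FPKM, with mice WT-140 and KO-850 high. Vegfc, the ligand of Flt4, had 1.79 and 5.43 against 0.510 and 3.87 FPKM, in the order of the general genes. Angpt2, the angiopoietin released by activated endothelium, was at most 1.12 FPKM and was listed at 0 in mouse KO-826. In the Notch and ephrin list 10 genes were tested, with 4 higher, 6 lower and 0 past the test. Dll4, the Notch ligand of vessel sprouts and arteries, had 2.46 and 7.75 against 4.28 and 6.36 FPKM. Of 8 tested genes of the BMP9 pathway 6 were higher, 2 lower and 0 past the test. Id1, a target of ALK1, had 74.6 and 54.2 against 77.7 and 63.9 FPKM, and did not follow the order of Acvrl1. In the endothelin and adrenomedullin list 6 genes were tested, 3 higher, 3 lower and 0 past the test. Edn1, the endothelin precursor, had 24.3 and 7.60 against 3.68 and 6.49 FPKM, highest in mouse WT-139.

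The leukocyte side of adhesion was lower in Usp25-/- mice for 11 of 12 tested genes, and 0 passed the test. The median log2 difference of these 12 was -0.38, beside 0.03 over all genes. Selplg, the P-selectin ligand of leukocytes, stood at 171 and 155 FPKM in the Usp25+/+ mice and at 92.4 and 114 FPKM in the Usp25-/- mice, without overlap. Itgal, the LFA-1 chain that binds ICAM1, had 34.1 and 21.3 against 14.3 and 21.2 FPKM. Itga4, the VLA-4 chain that binds VCAM1, had 6.18 and 4.67 against 3.19 and 5.47 FPKM. Tnf, which induces the adhesion genes in endothelium, had 305 and 69.2 against 43.7 and 27.1 FPKM, and Il1b had 7682 and 594 against 1965 and 760 FPKM. Il1b, like the selectins, was higher in mice WT-139 and KO-826 than in the other 2 mice. Tnf did not share that order, being higher in mouse WT-140 than in mouse KO-826. The sums of the neutrophil genes did share it. The part of Tnf and Il1b in the levels of the adhesion genes was not tested.

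Other cell types of the tissue also varied between the mice. Summed over 13 mural genes, of pericytes and smooth muscle, the level was 40.9 and 71.1 FPKM in mice WT-139 and WT-140 and 46.5 and 63.1 FPKM in mice KO-826 and KO-850, with the same 2 mice high as for the general endothelial genes, and 4 of the 13 stayed below 1 FPKM in every mouse. Mcam, which endothelium also expresses, made up 47.5% to 62.0% of the sum, and without it the sums were 21.5 and 27.0 against 18.0 and 27.2 FPKM. Type I pneumocyte genes, 5 in number, summed to 117 and 230 FPKM against 229 and 244 FPKM. Fibroblast genes, 8 in number, summed to 58.8 and 62.8 FPKM against 50.7 and 130 FPKM. Platelets share Selp, Vwf and Mmrn1 with endothelium. Of 10 platelet genes, 4 stayed below 1 FPKM in all mice, Itga2b among them at no more than 0.285 FPKM, and the sums were 42.2 and 57.0 FPKM against 67.3 and 54.6 FPKM. Clec1b made up 75.1% of the platelet sum in mouse WT-140. Without it the sums were 35.9 and 14.2 against 40.5 and 25.6 FPKM, high in the mice with high selectins. Ppbp was high in those mice too, at 19.2 and 0.646 against 13.8 and 2.95 FPKM. Pf4 did not share that order and was higher in both Usp25-/- mice, at 12.4 and 11.0 against 24.4 and 20.6 FPKM. Mouse WT-139 had the highest value for 6 of the 10. Apart from Ppbp, those genes were too low to be tested, at no more than 1.19 FPKM. The 11 monocyte and macrophage genes in the table summed to 19855 and 49149 FPKM against 41218 and 39866 FPKM. Lyz2 and Chil3 made up 94.8% to 97.8% of these sums, and without them the sums were 1023 and 1450 against 892 and 915 FPKM. The median over the 11 genes was highest in mouse WT-139, at 142 and 110 against 107 and 75.7 FPKM, and Csf1r, the receptor that macrophages need, had 96.2 and 52.8 against 47.3 and 48.0 FPKM. These sums with genes left out were added after the values had been seen. The part of these cells in the levels of the endothelial genes was not tested.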

How the data were processed

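The deposited table holds 1 FPKM column for each of 4 mice, computed by the authors. Bowtie 0.12.2 and mm9 are the tool and build in the submitters' processing notes, and the sources used here do not give the FPKM tool, annotation, strandedness or filters. After leaving out 27 symbols that had become dates, 24394 genes remained, and 12103 with an FPKM of at least 1 in at least 2 mice were tested. Values were analysed as log2(FPKM + 1), which understates changes of low genes. Genotypes were compared on both sides with limma 3.58.1 in R 4.3.3, with a mean-variance trend, and p was adjusted by Benjamini-Hochberg over the 12103 genes and called under 0.05. No pairing is recorded. With 2 mice against 2 an exact permutation test cannot go below p = 0.333, so none was run. The members and lists were chosen with earlier results of these data known. All members are named, and at most the first 4 genes of a list in list order. Genes outside that rule (Usp25, Cdx1, Zg16, Aqp8, Vil1, Krt20, Mcam, Clec1b and Chil3) were chosen after their values were seen. Positions are from Gencode on mm9, where all 34 genes were placed once, and promoter windows from RefSeq on GRCm38.p6. Python 3.11.15, pandas 2.3.3 and matplotlib 3.10.9 were used for descriptions and plots. Alternatives covered the pseudocount, filter, scaling, trend and leaving out each mouse.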

Additional observations from a re-analysis of the deposited data

How the results depend on the processing

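With all 4 mice, the pseudocount of 0.1, the other filters, both other scalings and the fit without a trend each left the 33 members with the sign they had and with 0 calls. Leaving out 1 mouse at a time never called a member, but it turned signs. The members higher in Usp25-/- mice ranged from 4 to 23 and the lower ones from 9 to 28. The median log2 difference over the members ranged from -0.66 to 0.21. Over all genes the count of calls ranged from 0 to 163, and the 163 arose without mouse WT-140. The log2 difference changed sign on leaving out at least 1 mouse for 25 members, none of them called. Its range was -0.81 to 0.14 for Pecam1, -0.99 to 0.061 for Cdh5, -0.28 to 1.28 for Esam, -0.89 to 0.84 for Icam2, -1.14 to 0.46 for Emcn, -0.48 to 0.56 for Cd34, -0.38 to 0.055 for Ly6c1, -0.98 to 0.35 for Kdr, -0.85 to 0.069 for Tek. It was -0.84 to 0.67 for Tie1, -0.92 to 0.24 for Acvrl1, -1.02 to 0.32 for Eng, -0.10 to 0.63 for Sox7, -0.33 to 1.57 for Sox17, -0.62 to 1.50 for Sox18, -0.64 to 0.58 for Ednrb, -0.65 to 0.42 for Calcrl, -1.37 to 0.64 for Ramp2. It was -1.48 to 0.29 for Egfl7, -0.92 to 0.033 for Mmrn2, -0.14 to 0.40 for Robo4, -0.42 to 1.09 for Plvap, -0.70 to 0.43 for Lyve1, -0.31 to 1.00 for Sele, -0.48 to 1.18 for Selp. Among the fits with 1 mouse left out, Sele reached the filter only without mouse WT-140 or KO-850. The other 8 members (Flt1, Flt4, Erg, Vwf, Mmrn1, Nos3, Icam1 and Vcam1) kept their sign. With 1 mouse left in a genotype, that mouse is assumed to vary like the other group. No paired analysis was possible because the mouse numbers are not shared between genotypes. The depth is unknown, so what it limits could not be given. Mouse WT-139 had the fewest genes listed at 0, and whether depth lay behind that was not tested.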
